A study of Homo sapiens with 54 samples.

Results

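The FGF receptors and their Klotho co-receptors are a family of 7 genes, FGFR1, FGFR2, FGFR3, FGFR4, FGFRL1, KL and KLB. Members were found by mapping the RefSeq accession of each array probe to these symbols, which gave 7 of the 19720 genes with a symbol and 11 of the 42405 probes on the array. FGFR1, FGFR2, FGFR3 and KLB had 2 probes each and the others 1. Of these, 5 genes and 8 probes were well above background on all 54 arrays, and the 2 genes that were not are KL and KLB.

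The study asked whether FGFC, an engineered heat-stable chimera of FGF1 and FGF2, can replace basic FGF (bFGF, the product of FGF2) in the culture of human pluripotent stem cells. RNA from 27 cultures was hybridized to 1-colour whole-genome Agilent arrays, 2 arrays per culture. The lines were H1 and KhES-1, which are embryonic stem cells, and 201B7 and 253G1, which are induced pluripotent stem cells. The H1 cultures in E8 Medium, a defined medium, make up experiments 1, 2 and 3, each with a pre-culture kept with bFGF and, after 4 days, a bFGF arm, an FGFC arm and an arm lacking FGF, so that each of these groups holds 3 cultures. The dose was 100 ng/mL in these pre-cultures and in the bFGF and FGFC arms.

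Long-term arms hold 1 culture each. H1 in E8 Medium was kept for 30 days with bFGF or FGFC at 100 ng/mL, and 253G1 in E8 Medium for 36 days at 100 ng/mL. H1 in medium conditioned by mouse embryonic fibroblasts (MEF-CM) was kept for 41 days at 5 ng/mL. KhES-1 on mouse fibroblast feeders was kept for 30 days at 5 ng/mL, and 201B7 on such feeders for 50 days at 10 ng/mL. Each of these 5 systems also has a pre-culture with bFGF, which for H1 in E8 Medium is that of experiment 1. A single H1 culture was differentiated. The 3 cultures of a system descend from 1 line in 1 medium. H1 in MEF-CM and H1 in E8 Medium differ at least in medium and dose. For 253G1 and H1 in E8 Medium the line differs, and for 201B7 and KhES-1 on feeders the line and dose do. No slide was shared between systems, so slide cannot be told apart from these differences in any contrast of systems. In experiment 2 the pre-culture was at passage 49 and the arms at passage 59, so those arms were not taken 4 days after that pre-culture.

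A level is the log2 processed signal of a probe minus the 75th percentile of its array, averaged over the duplicate arrays of a culture, and the probe with the highest mean signal stands for its gene. Levels were compared between cultures within a probe and not between genes. The exception is the marker sums, which add the genes of a list and name the brightest. The median gap between duplicate arrays was 0.06 for FGFR1, 0.06 for FGFR2, 0.05 for FGFR3, 0.06 for FGFR4 and 0.09 for FGFRL1, and the widest gap of these lead probes was 0.57, for FGFRL1. The widest gaps of second probes were 0.74 for FGFR1, 0.46 for FGFR2 and 0.60 for FGFR3. The share of probes well above background ran from 56.2% to 79.2% of an array. Of each array, the probes outside that share give signal too close to background for a fold.

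FGF receptors are single-pass tyrosine kinases that dimerize when an FGF and heparan sulfate bind outside the cell, and they signal through the docking protein FRS2 to RAS and ERK. FGF1 binds all the FGF receptors, while FGF2 prefers the mesenchymal splice forms of some of them, and human pluripotent stem cells are commonly kept undifferentiated with FGF2. FGFRL1 binds FGFs but lacks the tyrosine kinase domain, and KL and KLB are membrane proteins that let the endocrine FGFs (FGF23, FGF19 and FGF21) bind their receptors.

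FGFR1, the receptor most often linked with FGF2 in these cells, had levels from 2.29 to 4.45 over the 27 cultures, with a median of 3.71. FGFR2 ran from 1.91 to 3.45 (median 2.33) and FGFR3 from 1.19 to 4.95 (median 2.19). The differentiated culture held the lowest FGFR1 level, and the highest FGFR1, FGFR2 and FGFR3 levels were all found in cultures without FGF. FGFR4, which is known for its role with FGF19 in liver, ran from -2.92 to -0.36 (median -0.81). FGFRL1 ran from -1.58 to 1.05 (median -0.23). The lowest FGFR4 level was again that of the differentiated culture, while FGFRL1 was lowest in H1 after 30 days with FGFC in E8 Medium and highest in H1 in MEF-CM with bFGF.

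The Klotho co-receptors were at the limit of the arrays. KL was well above background on 2 of 54 arrays and KLB on 7 of 54, its other probe on 1 of 54. Their fitted differences are background signal and no fold is given for either gene.

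The promoters of the 3 members that rose after FGF removal are shown here because these are the members called higher against bFGF, with the 300 bases around each annotated start taken from RefSeq on build GRCh38.p14. An entry was found for 6 of 7 members, and none for FGFR1. Capitals mark the GC box letters GGGCGG on either strand, and overlapping matches were counted separately. FGFR3 lies at chr4:1793043-1793342 on the plus strand. FGFRL1 lies at chr4:1012214-1012513 on the plus strand. FGFR2 is shown by the first of its 5 entries, at chr10:121598395-121598694 on the minus strand.
FGFR3: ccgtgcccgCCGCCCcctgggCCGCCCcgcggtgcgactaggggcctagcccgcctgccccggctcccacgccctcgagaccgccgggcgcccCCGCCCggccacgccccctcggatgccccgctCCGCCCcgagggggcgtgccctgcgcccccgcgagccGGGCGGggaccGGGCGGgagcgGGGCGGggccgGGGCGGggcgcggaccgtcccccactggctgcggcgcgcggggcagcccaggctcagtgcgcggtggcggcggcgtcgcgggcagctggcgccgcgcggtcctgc
FGFRL1: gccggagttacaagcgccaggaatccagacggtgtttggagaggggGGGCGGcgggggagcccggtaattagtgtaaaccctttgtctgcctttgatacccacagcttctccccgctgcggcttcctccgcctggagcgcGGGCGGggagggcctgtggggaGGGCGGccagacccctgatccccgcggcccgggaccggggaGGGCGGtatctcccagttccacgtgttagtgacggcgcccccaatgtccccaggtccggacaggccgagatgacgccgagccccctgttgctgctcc
FGFR2: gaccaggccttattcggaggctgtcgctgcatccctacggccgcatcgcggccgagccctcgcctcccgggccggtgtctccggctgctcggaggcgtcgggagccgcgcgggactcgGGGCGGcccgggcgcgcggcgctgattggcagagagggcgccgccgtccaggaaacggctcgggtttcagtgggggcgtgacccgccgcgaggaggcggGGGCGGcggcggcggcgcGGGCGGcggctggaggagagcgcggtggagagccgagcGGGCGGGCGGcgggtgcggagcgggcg

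The FGFR3 window is 86.3% G and C with 51 CpG pairs, against a median of 58.7% over 35116 promoters of the same length, and it holds 8 GC boxes. The FGFRL1 window is 68.3% G and C with 4 GC boxes. The first FGFR2 window is 79.3% with 5, while the other 4 FGFR2 entries are 47.3%, 50.3%, 50.7% and 50.7% with 0, 0, 1 and 0, and which start these cells use was not analysed here. Of all promoters, 45.0% hold at least 1 GC box. The ETS core CCGGAAG (in 10.3% of promoters), the AP-1 letters TGACTCA (4.95%) and the TATA letters TATAAA (11.5%) were not found on either strand of these 3 windows. A match is a description of letters, and no factor binding was analysed here. The KLB window differs in composition, at 42.3% G and C with 0 GC boxes. The 2 FGFR4 entries are 78.7% with 7 GC boxes and 57.3% with 0, and the KL window is 81.3% with 5.

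After 4 days without FGF, FGFR3 was several-fold higher than with bFGF in all 3 experiments, and FGFR2 and FGFRL1 were higher by less than 2-fold on average. FGFR1 and FGFR4 did not pass the test, and no member was called lower. The question is what the receptors do once their ligand is withdrawn. Of 7 members, 3 were called higher and 0 lower (limma, 4 members at an unadjusted p under 0.05), beside 5.54% of all probes called higher and 7.19% lower (12.7% either way, 25.3% at an unadjusted p under 0.05). The balance of probes turned with normexp background correction (3237 higher and 2821 lower) and with only these 2 arms (5552 and 4198). The call rests on an adjusted p under 0.05 over all 42405 probes. When only probes well above background in at least 1 group were tested, 3 of 5 members were higher and 0 lower. Beside them, 2823 of these 27570 probes were higher and 3657 lower. In bulk RNA, fewer cells of a type and less RNA per cell cannot be told apart.

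In the cultures with bFGF the FGFR3 level was 1.71, 1.98 and 1.98 in experiments 1, 2 and 3, and in those without FGF it was 4.95, 3.84 and 4.19. All 3 cultures without FGF were above every culture with bFGF, FGFC or before the experiment, and the groups did not overlap. The means were 1.89 ± 0.15 with bFGF and 4.32 ± 0.57 without FGF (SD, n = 3). The fitted rise was 2.43 (95% interval 1.71 to 3.16, adjusted p, limma, 0.000627), seen in 3 of 3 experiments as 9.43-fold, 3.63-fold and 4.62-fold. The second FGFR3 probe gave a rise of 2.26 (adjusted p, limma, 0.00162, 3 of 3 experiments). Against the pre-culture of the same experiment number the FGFR3 difference was 3.11, 1.90 and 2.77, where experiment 2 sets passage 59 against passage 49.

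FGFR2, the receptor whose splice forms separate epithelial from mesenchymal cells, was at 2.24, 2.20 and 2.07 with bFGF and at 3.45, 2.65 and 2.72 without FGF. Experiment 1 was the highest, and the 2 groups did not overlap. The means were 2.17 ± 0.09 and 2.94 ± 0.45 (SD, n = 3). The fitted rise was 0.77 (95% interval 0.30 to 1.24, adjusted p, limma, 0.0377, 3 of 3 experiments). The second FGFR2 probe had a difference of 0.76 that did not pass the test (adjusted p, limma, 0.0521, 3 of 3 experiments). The FGFR2 call rests on all 3 experiments, since it was lost without experiment 1 (0.54, adjusted p, limma, 0.143), without experiment 2 (0.93, adjusted p, limma, 0.138) and without experiment 3 (0.83, adjusted p, limma, 0.268). It was lost too with slide as a block (0.84, adjusted p, limma, 0.107), in experiment 2 the bFGF arm being on another slide, and with the second array of each culture (0.70, adjusted p, limma, 0.0673).

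FGFRL1, the receptor without a kinase domain, was at -0.37, -0.42 and -0.37 with bFGF and at 0.09, 0.72 and 0.21 without FGF. The cultures with bFGF lay within a narrow band, and all 3 cultures without FGF were above it. The means were -0.38 ± 0.03 and 0.34 ± 0.33 (SD, n = 3). The fitted rise was 0.73 (95% interval 0.30 to 1.15, adjusted p, limma, 0.0312, 3 of 3 experiments). This FGFRL1 call too was lost without experiment 1 (0.86, adjusted p, limma, 0.0904), experiment 2 (0.52, adjusted p, limma, 0.217) or experiment 3 (0.80, adjusted p, limma, 0.252). With slide as a block (0.66, adjusted p, limma, 0.159) and with the second array of each culture (0.66, adjusted p, limma, 0.0876) FGFRL1 did not pass either. Without experiments 1, 2 or 3 the number of probes called over the whole array was 3557, 1942 and 1272, against 5400 with all of them.

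FGFR1 was at 3.51, 3.96 and 3.91 with bFGF and at 4.37, 4.30 and 4.45 without FGF. The groups did not overlap, but the cultures without FGF were above the bFGF culture of their own experiment by unequal amounts, 0.87, 0.34 and 0.54. The fitted difference of 0.58 (95% interval -0.00 to 1.17) did not pass the test (adjusted p, limma, 0.201, 3 of 3 experiments). It passed when the fit held the 6 cultures of these 2 arms alone (adjusted p, limma, 0.0454, 3 of 3 experiments, difference 0.58). The second FGFR1 probe gave 0.52, -0.15 and 0.24 in the 3 experiments, with overlapping groups and a fitted difference of 0.20 (95% interval -0.42 to 0.82). The fit of these 2 arms lost the FGFR2 call (0.77, adjusted p, limma, 0.0620, 3 of 3 experiments).

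FGFR4 was at -0.48, -0.48 and -0.65 with bFGF and at -0.64, -1.03 and -1.03 without FGF. The groups met at the FGFR4 level of experiment 1, where the culture without FGF was close to the lowest culture with bFGF. The fitted difference was -0.36 (95% interval -0.71 to -0.01, adjusted p, limma, 0.184, lower in 3 of 3 experiments), which did not pass the test.

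**Figure D1:**
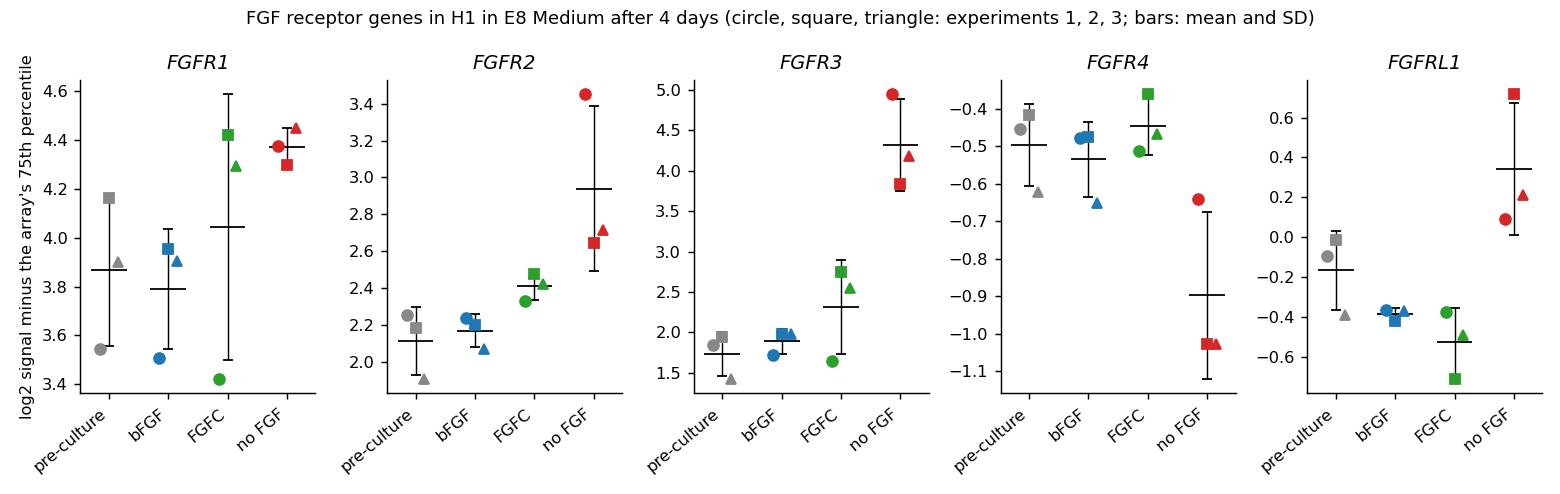
Level of 5 members (log2 signal minus the 75th percentile of the array) in H1 in E8 Medium, 1 point per culture, by arm and experiment, with bars for the mean and SD of 3 cultures. FGFR3 lies between 3.84 and 4.95 without FGF and between 1.42 and 2.74 in the other arms.

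With FGFC in place of bFGF as the reference, FGFR3 and FGFRL1 were again higher without FGF, and FGFR2 did not pass the test. Both comparisons use the same cultures without FGF, so their values stand side by side and are not independent. The difference between the 2 comparisons was not tested. Of 7 members, 2 were called higher and 0 lower (limma, 4 members at an unadjusted p under 0.05), beside 4.72% of all probes called higher and 6.07% lower (10.8% either way, 22.8% at an unadjusted p under 0.05). With normexp the probes called were 2682 higher and 2647 lower. Among probes well above background in at least 1 group, 2 of 5 members were higher and 1 lower. Beside them, 2659 of these 27570 probes were higher and 3226 lower.

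FGFR3 in the cultures with FGFC was at 1.65, 2.74 and 2.55. Experiment 1 was the lowest of these and had the highest FGFR3 level without FGF, so the gap differed most there, and the groups did not overlap. The fitted rise was 2.01 (95% interval 1.29 to 2.73, adjusted p, limma, 0.00244), with 3.30, 1.09 and 1.63 in the 3 experiments, higher in 3 of 3. Without experiment 3 the FGFR3 call was lost (2.20, adjusted p, limma, 0.0745, 2 of 2 experiments). The second FGFR3 probe rose by 1.99 (adjusted p, limma, 0.00406, 3 of 3 experiments).

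FGFRL1 with FGFC was at -0.38, -0.71 and -0.49, and every culture without FGF was above these. The fitted FGFRL1 rise was 0.87 (95% interval 0.44 to 1.29, adjusted p, limma, 0.0148, 3 of 3 experiments). It was lost without experiment 2 (0.59, adjusted p, limma, 0.259) and without experiment 3 (0.95, adjusted p, limma, 0.193). The FGFRL1 call was lost too with slide as a block (0.87, adjusted p, limma, 0.0686) and with these 2 arms alone (0.87, adjusted p, limma, 0.0877). Over the whole array 4575 probes were called, and 1480 and 974 without these experiments.

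FGFR2 with FGFC was at 2.33, 2.48 and 2.43, all under the cultures without FGF, and the FGFR2 difference of 0.53 (95% interval 0.06 to 1.00) did not pass the test (adjusted p, limma, 0.163, 3 of 3 experiments). It passed with the normexp background correction (adjusted p, limma, 0.0498). On the second FGFR2 probe the difference was 1.31, -0.06 and 0.39 in the 3 experiments, and the groups overlapped. FGFR1 with FGFC was at 3.42, 4.42 and 4.29. The highest of these exceeded the lowest FGFR1 level without FGF, so the groups overlapped, and the difference was 0.33 (95% interval -0.26 to 0.92, adjusted p, limma, 0.558, higher in 2 of 3 experiments). FGFR4 with FGFC was at -0.51, -0.36 and -0.47, above every culture without FGF. The FGFR4 difference of -0.45 (95% interval -0.80 to -0.10) did not pass the test (adjusted p, limma, 0.106, lower in 3 of 3 experiments), and it passed as a fall among probes well above background (adjusted p, limma, 0.0487).

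The ligand list holds FGF1, FGF2, FGF19, FGF21 and FGF23, of which 0 rose and 2 fell against bFGF, with a list median of -0.23 beside 0.01 over all probes. FGF2 itself was at 0.17, 0.33 and 0.13 with bFGF and at 0.05, -0.11 and 0.03 without FGF, and it was not called (FGF2 is named here after its values were seen). FGF19, the endocrine FGF that works with KLB and FGFR4, was at -2.24, -1.94 and -2.42 with bFGF and at -4.97, -3.60 and -4.02 without FGF, where it was well above background on 3 of 6 arrays. It was called lower (3 of 3 experiments), with no size given for that reason, and the call was lost without experiment 3 (adjusted p, limma, 0.0688). FGF21 was at least 4.06-fold lower (adjusted p, limma, 0.0107, 3 of 3 experiments), lost without experiment 1 (adjusted p, limma, 0.0641), 2 (adjusted p, limma, 0.0677) or 3 (adjusted p, limma, 0.0604). Against FGFC the same list had 0 higher and 2 lower, with FGF19 again called lower in 3 of 3 experiments and without a size. That FGF19 call was lost without experiment 1 (adjusted p, limma, 0.0585) and without experiment 3 (adjusted p, limma, 0.156).

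Among 16 membrane partners of the receptors, which include adhesion molecules and heparan sulfate proteoglycans, 6 rose and 1 fell against bFGF (list median 0.20). FLRT3, a transmembrane protein that binds FGF receptors, was at -4.93, -5.62 and -5.55 with bFGF, where it was on no array well above background, and at 0.52, 1.01 and 0.55 without FGF. It was at least 66.7-fold higher (adjusted p, limma, 3.69e-06, 3 of 3 experiments), the widest gap of the list, and the groups were far apart. GPC3, a glypican, went from 2.01, 2.41 and 2.50 to 4.95, 5.01 and 5.16, a rise of 2.73 (adjusted p, limma, 3.52e-05, 3 of 3 experiments). CDH2, the neural cadherin that binds FGFR1, went from 1.96, 1.85 and 1.98 to 3.49, 4.74 and 4.06, a rise of 2.17 (adjusted p, limma, 0.000517, 3 of 3 experiments). L1CAM, an adhesion molecule, was the only one of the 16 called lower, from -2.19, -2.64 and -2.28 to values on no array well above background, at least 8.33-fold (adjusted p, limma, 4.2e-05, 3 of 3 experiments).

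Against FGFC, 4 of the 16 partners rose and 2 fell (median 0.15). CDH2 rose by 2.22 and GPC3 by 2.08, each in 3 of 3 experiments. FLRT3 was called higher in 3 of 3 experiments, with no size given because it was well above background on 2 of 6 arrays with FGFC, and L1CAM was at least 6.18-fold lower. GPC4 fell by 0.72 (adjusted p, limma, 0.0154, 3 of 3 experiments), and that call was lost without experiment 1 (-0.80, adjusted p, limma, 0.0503), 2 (-0.74, adjusted p, limma, 0.166) or 3 (-0.63, adjusted p, limma, 0.340).

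The enzymes that build and trim heparan sulfate, the sugar that holds FGF on its receptor, gave 1 rise and 1 fall among 11 against bFGF (median 0.05), and the same counts against FGFC (median 0.22). HS6ST2, which adds sulfate at the 6-O position, was at -0.79, -0.86 and -0.73 with bFGF and at 0.93, 1.84 and 1.61 without FGF. It rose by 2.25 (adjusted p, limma, 8.81e-05, 3 of 3 experiments) and against FGFC by 2.09. SULF1, which removes 6-O sulfate outside the cell, was at 0.62, 0.26 and 0.37 with bFGF and at -4.20, -1.48 and -1.89 without FGF, with experiment 1 the lowest and well above background on 5 of 6 arrays without FGF. It fell by 2.94 (adjusted p, limma, 0.0127, 3 of 3 experiments), lost without experiment 1 (-2.00, adjusted p, limma, 0.0633), 2 (-3.54, adjusted p, limma, 0.0619) or 3 (-3.28, adjusted p, limma, 0.0819). Against FGFC it fell by 2.43 (adjusted p, limma, 0.0364), lost without experiment 1 (-1.68, adjusted p, limma, 0.0944), 2 (-2.96, adjusted p, limma, 0.129) or 3 (-2.65, adjusted p, limma, 0.174), and with experiment as a block.

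Of 12 docking and adaptor genes 1 rose and 1 fell in each of these comparisons (medians 0.16 and 0.11). FRS2, the docking protein that FGF receptors phosphorylate, was at -1.50, -1.28 and -1.51 with bFGF and at -0.30, -0.39 and -0.42 without FGF. It rose by 1.06 against bFGF (adjusted p, limma, 0.000619, 3 of 3 experiments) and by 1.04 against FGFC (adjusted p, limma, 0.000817), and both calls were lost without experiment 3 (1.05, adjusted p, limma, 0.0642, and 1.06, adjusted p, limma, 0.0735). SHC1, another adaptor, fell by 0.70 against bFGF (adjusted p, limma, 0.0206, 3 of 3 experiments), lost without experiment 1 (-0.63), 2 (-0.80) or 3 (-0.67, adjusted p, limma, 0.324). In the RAS-ERK cascade of 11 genes, HRAS rose by 0.86 (adjusted p, limma, 0.0283, 3 of 3 experiments) and MAP2K1 fell by 0.76 (adjusted p, limma, 0.0214, 3 of 3 experiments) against bFGF. Each was lost without any 1 experiment, HRAS at 0.88, 0.85 and 0.85 and MAP2K1 at -0.81, -0.74 and -0.73 without experiments 1, 2 and 3. Against FGFC 0 of these 11 rose and 1 fell (limma, 7 at an unadjusted p under 0.05).

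The feedback genes that ERK signalling switches on had more falls than rises, with 1 higher and 5 lower of 13 measured against bFGF (median -0.35) and the same counts against FGFC (median -0.22). SPRED3 has no measured probe. SPRY4, a Sprouty inhibitor of RAS, was at 2.02, 2.14 and 2.55 with bFGF and at -1.10, 0.26 and 0.35 without FGF, and it fell by 2.40 (adjusted p, limma, 0.000839, 3 of 3 experiments). DUSP6, the phosphatase of ERK, was at 5.23, 5.25 and 5.74 with bFGF and at 0.92, 3.72 and 3.60 without FGF. The DUSP6 fall was deepest in experiment 1, which also had the highest FGFR3 level, and the groups did not overlap. DUSP6 fell by 2.66 (adjusted p, limma, 0.0122, 3 of 3 experiments), lost without experiment 2 (-3.22, adjusted p, limma, 0.0575) and 3 (-2.92, adjusted p, limma, 0.129). DUSP5 fell by 1.90 (adjusted p, limma, 0.000805, 3 of 3 experiments), lost without experiment 3 (-1.63, adjusted p, limma, 0.0653), and DUSP4 rose by 0.58 (adjusted p, limma, 0.0378, 3 of 3 experiments), lost without experiment 1 (0.64), 2 (0.62) or 3 (0.48, adjusted p, limma, 0.413).

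The reference family of 16 other receptor tyrosine kinases gave 2 rises and 5 falls against bFGF (median -0.46) and 2 rises and 6 falls against FGFC (median -0.49). KDR, a receptor for VEGF, was at 0.95, 0.91 and 1.26 with bFGF and at -3.31, -3.18 and -2.90 without FGF. It fell by 4.17 (adjusted p, limma, 1.62e-06, 3 of 3 experiments). PDGFRA was at -4.81, -4.69 and -4.85 with bFGF and at -1.44, -2.83 and -1.50 without FGF, and was well above background on 4 of 6 arrays with bFGF and 4 of 6 with FGFC. It had a fitted rise of 2.86 (adjusted p, limma, 0.000159, 3 of 3 experiments). NTRK3, the neurotrophin-3 receptor, rose by 1.86 (adjusted p, limma, 0.00073, 3 of 3 experiments) and KDR, PDGFRA and NTRK3 all differed from the FGFC cultures in the same direction, by -4.17, 2.95 and 1.66, the last of them lost without experiment 2 (1.65, adjusted p, limma, 0.0621). Against bFGF, FLT1 fell by 1.42 (adjusted p, limma, 0.00159, 3 of 3 experiments), lost without experiment 2 (-1.27, adjusted p, limma, 0.0633) or 3 (-1.31, adjusted p, limma, 0.0926). EPHA1 fell by 1.16 (adjusted p, limma, 0.000594, 3 of 3 experiments), lost without experiment 3 (-1.18, adjusted p, limma, 0.0513).

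The splicing regulators that choose among FGFR exons, ESRP1, ESRP2, RBFOX2, PTBP1, PTBP2 and MBNL1, gave 0 calls of 6 in limma against bFGF (3 at an unadjusted p under 0.05, median 0.09) and 0 against FGFC (2 at an unadjusted p under 0.05, median 0.13). Splice forms of FGFR1, FGFR2 and FGFR3 were not analysed here.

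**Figure D2:**
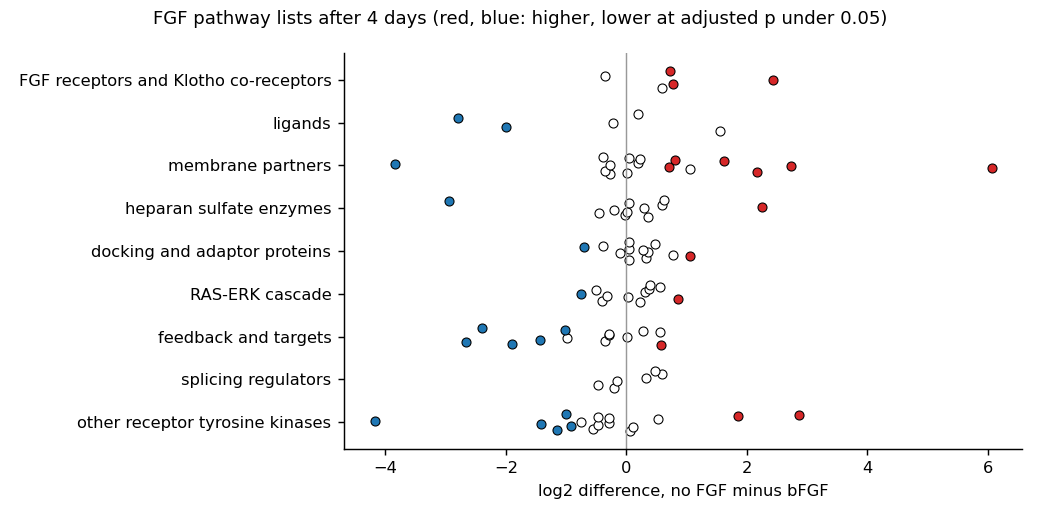
Fitted log2 difference (no FGF minus bFGF, H1 after 4 days) of the genes of 9 lists, 1 point per gene, red and blue where higher or lower at an adjusted p under 0.05, without KL and KLB. Points of genes near background are fitted differences and not folds, and FLRT3 is the point farthest to the right.

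Markers of cell identity changed in the same cultures. Of 7 markers of undifferentiated cells, 1 rose and 4 fell against bFGF (median -1.08). The summed level of these genes, in multiples of the 75th percentile of the array, was 560, 619 and 522 with bFGF and 417, 304 and 283 without FGF, with POU5F1 the brightest in each culture. TDGF1, a co-receptor of Nodal, fell by 3.32 (adjusted p, limma, 3.06e-06, 3 of 3 experiments), and SOX2, shared by pluripotent and neural cells, rose by 1.32 (adjusted p, limma, 0.000363, 3 of 3 experiments). NANOG fell by 1.71 (adjusted p, limma, 0.000958, 3 of 3 experiments), lost without experiment 3 (-1.52, adjusted p, limma, 0.0562). Their part in the receptor differences was not tested.

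Of 5 neural markers, 4 rose and 0 fell (median 2.65), and their summed level was 10.8, 11.1 and 10.3 with bFGF and 18.7, 29.7 and 24.9 without FGF. NES was the brightest in each culture, and SOX1 was not well above background in any of the cultures without FGF, nor ZIC1 in experiment 1. PAX6 was at least 37.7-fold higher (adjusted p, limma, 0.000266, 3 of 3 experiments) and MAP2 rose by 2.65 (adjusted p, limma, 0.000209, 3 of 3 experiments). Of 6 trophoblast and amnion markers 3 rose (median 1.80), with GATA3 at least 20.1-fold higher (adjusted p, limma, 3.24e-05, 3 of 3 experiments) and VTCN1 at least 5.39-fold (adjusted p, limma, 1.2e-05, 3 of 3 experiments). Their sum was 6.74, 7.74 and 6.01 with bFGF and 9.04, 6.38 and 6.47 without FGF, brightest in KRT7, with CGA not well above background without FGF, nor HAND1 in experiments 1 and 2. The part of these markers in the receptor differences was not tested.

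Of 7 fibroblast and mesenchyme markers 0 rose and 1 fell, THY1, by 1.70 (adjusted p, limma, 0.000209, 3 of 3 experiments). Their sum, brightest in THY1, was 51.2, 47.0 and 54.6 with bFGF and 18.5, 25.0 and 20.3 without FGF, and LUM, DCN and POSTN were not well above background without FGF, nor was COL3A1 in experiments 1 and 2. With bFGF, COL3A1, LUM and DCN were not. Of the 6 hepatic and yolk sac, 3 surface epithelium and 3 endothelium markers, 0 were called in limma and 0 passed an unadjusted p under 0.05. Hepatic sums, brightest in AFP, were 0.730, 1.01 and 0.718 with bFGF and 0.660, 1.18 and 0.632 without FGF, where ALB, APOA2, TTR and FGB were not well above background. Endothelium sums, brightest in TEK, were 2.79, 3.47 and 3.50 with bFGF and 3.65, 4.07 and 3.36 without FGF, and KRT5, KRT14 and TP63 were not well above background without FGF.

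Against FGFC the marker lists had 2 higher and 4 lower of the 7 undifferentiated, 4 higher of the 5 neural, 3 higher of the 6 trophoblast and 1 lower of the 7 fibroblast genes, and 0 of the hepatic, surface epithelium and endothelium genes in limma (0 at an unadjusted p under 0.05). TDGF1 was lower by a fitted -3.36 and GATA3 at least 17.4-fold higher. PAX6 was called higher too, and no size is given because it was well above background on 1 of 6 arrays with FGFC. In the FGFC cultures the undifferentiated sum was 635, 526 and 521 and the neural sum 12.7, 12.2 and 10.5, close to the bFGF cultures of the same experiments.

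With FGFC in place of bFGF for 4 days, no member was called. On lead probes FGFR1, FGFR2 and FGFR3 levels were within 0.1 of each other in experiment 1 and higher with FGFC in experiments 2 and 3. The second probes were lower with FGFC in experiment 1, by -0.16, -0.13 and -0.40. This comparison asks whether the chimera leaves the receptors as bFGF does. In limma 0 of 7 members were called, beside 0% of all probes, and at an unadjusted p under 0.05 there were 1 member, KL, which was not well above background, and 1262 probes (2.98%).

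FGFR3 differed by -0.07, 0.77 and 0.57 (FGFC minus bFGF) in experiments 1, 2 and 3. Experiment 1 stood apart, with its FGFR3 level the lowest of the FGFC cultures. The fitted difference was 0.42 (95% interval -0.30 to 1.15). The FGFR1 difference was 0.25 (95% interval -0.33 to 0.84) and the FGFR2 difference 0.24 (95% interval -0.23 to 0.71). FGFR4 differed by 0.09 (95% interval -0.26 to 0.44) and FGFRL1 by -0.14 (95% interval -0.57 to 0.29). Each adjusted p (limma) was 1.00, with FGFR2 (on its lead probe) higher and FGFRL1 lower in 3 of 3 experiments and the other 3 genes higher in 2 of 3. The intervals leave room for differences of more than 2-fold for FGFR3. Experiments 1 and 3 had the arms on a shared slide, and experiment 2 had bFGF on another slide than FGFC.

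Over the 5 long-term systems the receptor levels with FGFC were again near those with bFGF. FGFR1 differed on average by 0.04 (95% interval -0.17 to 0.25), FGFR2 by -0.02 (95% interval -0.31 to 0.28) and FGFR3 by -0.02 (95% interval -0.30 to 0.27). Their second probes had the opposite sign for FGFR1 (-0.06, 95% interval -0.43 to 0.31) and FGFR3 (0.10, 95% interval -0.35 to 0.55). FGFR4 differed by -0.09 (95% interval -0.35 to 0.17) and FGFRL1 by -0.28 (95% interval -0.73 to 0.18). The FGFRL1 difference was -0.07 without H1 in E8 Medium, and that of FGFR4 was -0.01 without H1 in MEF-CM. In limma with the system as a block 0 of 7 members were called, beside 0% of all probes, and at an unadjusted p under 0.05 there were 1 member, KLB, which was not well above background, and 2537 probes (5.98%). The intervals of FGFR1, FGFR2, FGFR3, FGFR4 and FGFRL1 lie within a 2-fold difference either way.

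Each system holds 1 culture with FGFC and 1 with bFGF, so differences within a system have no test. The bFGF and FGFC cultures were on different slides in H1 in E8 Medium, H1 in MEF-CM and KhES-1. There slide and arm cannot be told apart, while in 201B7 and in 253G1 the arms shared a slide. FGFRL1 in H1 in E8 Medium was at -1.58 with FGFC and at -0.50 with bFGF after 30 days, a difference of -1.08. This was the only one of the 5 measured members past 2-fold in that system, where 6.82% of all probes were. In H1 in MEF-CM the member differences on lead probes ran from -0.41 to -0.07 and 0 of 5 passed 2-fold (4.38% of probes did). In KhES-1 they ran from -0.21 to 0.14 (0 of 5, 3.15% of probes), in 201B7 from 0.00 to 0.33 (0 of 5, 6.16%) and in 253G1 from -0.35 to 0.31 (0 of 5, 6.98%). On lead probes no member was on the same side of 0 in all of the 8 pairs.

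**Figure D3:**
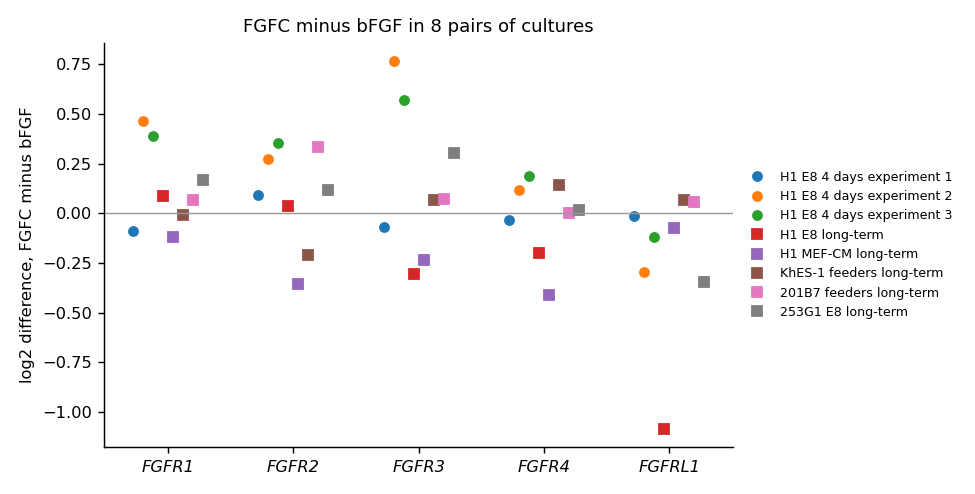
Difference in level (log2, FGFC minus bFGF) of 5 members in 8 pairs of cultures, circles for the 4-day experiments and squares for the long-term systems. The farthest point is FGFRL1 in H1 in E8 Medium at -1.08, and the highest is FGFR3 in experiment 2 at 0.77.

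None of the pathway or marker lists had a gene called in limma between FGFC and bFGF in either setting. At an unadjusted p under 0.05 and 4 days the counts were 0 of 5 ligands, 2 of 16 membrane partners, 0 of 11 heparan sulfate enzymes, 0 of 12 docking genes, 0 of 11 RAS-ERK genes, 0 of 13 feedback genes, 0 of 6 splicing regulators and 1 of 16 other receptor kinases. Among markers 1 neural and 1 trophoblast gene passed the unadjusted p, and 0 in the other marker lists. In the long-term systems the unadjusted counts were 0, 0, 1, 0, 1, 0, 1 and 2 for the same pathway lists in this order, and 1 each for the undifferentiated, trophoblast and fibroblast markers. The list median was 0.25 at 4 days and 0.04 in the long term for the membrane partners, and -0.14 and -0.03 for the feedback genes.

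H1 cells in MEF-conditioned medium had more FGFR3 and FGFRL1 transcript than H1 cells in E8 Medium. Both genes were also higher after FGF removal, while FGFR1 and FGFR2 did not pass the test here. The comparison asks how receptor levels differ between a conditioned medium with 5 ng/mL FGF and a defined one with 100 ng/mL in 1 line. Of 7 members 2 were called higher and 0 lower (limma, 3 members at an unadjusted p under 0.05), beside 8.16% of all probes called higher and 21.0% lower (29.2% either way, 40.2% at an unadjusted p under 0.05). The median of all probes was lower by a log2 difference of -0.15 in MEF-CM, and differences relative to it are given too. Between 75.2% and 79.2% of probes were well above background on the MEF-CM arrays and between 60.1% and 74.0% on the E8 arrays, whose floor was higher (-6.34 to -5.04 against -7.38 to -6.81). Of all probes 8912 were called lower, and 3101 when only probes well above background were tested, so a gene called lower that is near background in both media is not read as a fall.

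FGFR3 was at 3.30, 3.64 and 3.41 in the MEF-CM pre-culture, with bFGF and with FGFC, and at 1.84, 1.49 and 1.19 in E8 Medium. The groups were far apart for FGFR3, with the lowest MEF-CM culture above the highest E8 culture. FGFR3 was higher by 1.94 (95% interval 1.47 to 2.42, adjusted p, limma, 0.0002, 3 of 3 arms), or 2.09 relative to the median of all probes. The second FGFR3 probe gave 1.55 (adjusted p, limma, 0.00209, 3 of 3 arms). FGFRL1 was at 0.76, 1.05 and 0.98 in MEF-CM and at -0.09, -0.50 and -1.58 in E8 Medium. The E8 cultures were spread widely, and all lay under MEF-CM. FGFRL1 was higher by 1.65 (95% interval 1.05 to 2.25, adjusted p, limma, 0.00151, 3 of 3 arms), or 1.80 relative to the median.

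FGFR4 was at -1.18, -0.73 and -1.15 in MEF-CM and at -0.45, -0.52 and -0.72 in E8 Medium, without overlap by a narrow margin. The FGFR4 difference of -0.45 (95% interval -0.81 to -0.10, -0.30 relative to the median) did not pass the test (adjusted p, limma, 0.0546, lower in 3 of 3 arms), and it passed with quantile normalization (adjusted p, limma, 0.0456) or the second array of each culture (adjusted p, limma, 0.0444). FGFR2 differed by 0.12 (95% interval -0.30 to 0.53) and FGFR1 by -0.17 (95% interval -0.47 to 0.14), and neither passed. With the 75th percentile 28.0% of the 12373 probes called were higher. The share was 41.3% of 4469 with normexp, 51.5% of 6716 with quantile normalization and 51.0% of 6326 among probes well above background. Leaving out the pre-cultures, the bFGF or the FGFC cultures left 14358, 3122 and 5644 probes called.

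Of 5 ligands, 2 were called higher and 3 lower in MEF-CM (median -1.19). FGF21 and FGF23, among those called lower, were well above background on some arrays only, so no size is given for them. FGF2 was at 1.49, 2.01 and 1.86 in MEF-CM and at -0.03, -0.01 and -0.10 in E8 Medium. It was higher by 1.83 (adjusted p, limma, 8.36e-05, 3 of 3 arms), and no E8 culture came near. FGF1, the other parent of the chimera, was on no E8 array well above background and at -2.66, -3.39 and -2.21 in MEF-CM, at least 7.67-fold higher (adjusted p, limma, 0.000354, 3 of 3 arms). FGF19 was lower by a fitted -1.50 (adjusted p, limma, 0.00122, 3 of 3 arms).

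Of the 16 membrane partners 4 were called higher and 3 lower (median 0.15), FLRT2 among the latter, well above background on 4 of 6 arrays in MEF-CM and 3 of 6 in E8 Medium. NRP1, a co-receptor for VEGF and other growth factors, was at 0.36, 0.23 and 0.35 in MEF-CM and at -3.88, -3.77 and -4.28 in E8 Medium, higher by 4.30 (adjusted p, limma, 1.91e-06, 3 of 3 arms). CDH2 was higher by 2.31 (adjusted p, limma, 0.00103, 3 of 3 arms). Of 11 heparan sulfate enzymes 1 was higher and 4 lower (median 0.09), with SULF2 higher by 1.93 (adjusted p, limma, 0.000155, 3 of 3 arms) and GLCE lower by a fitted -1.66 (adjusted p, limma, 0.000819, 3 of 3 arms). Of 12 docking genes GAB1 alone, well above background on 5 of 6 E8 arrays, was higher, at 0.71 (adjusted p, limma, 0.0366, 3 of 3 arms), lost without the bFGF (0.70, adjusted p, limma, 0.237) or FGFC cultures (0.77, adjusted p, limma, 0.144).

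Downstream of the receptors 0 of 13 feedback genes were higher and 3 lower in MEF-CM (median -0.37). DUSP6 was at 3.06, 2.72 and 2.80 in MEF-CM and at 5.40, 5.58 and 5.74 in E8 Medium, lower by a fitted -2.72 (adjusted p, limma, 2.84e-05, 3 of 3 arms). DUSP5 was lower by -0.95 (adjusted p, limma, 0.00178, 3 of 3 arms), lost without the bFGF cultures (-0.87, adjusted p, limma, 0.0812). Of 11 RAS-ERK genes 0 were higher and 2 lower (median -0.02), of 6 splicing regulators 1 and 1 (median 0.07) and of the 16 other receptor kinases 3 and 2 (median 0.06). MBNL1, a splicing regulator, was higher by 1.15 (adjusted p, limma, 0.0240, 3 of 3 arms), lost without the bFGF (1.38, adjusted p, limma, 0.108) or FGFC cultures (0.99, adjusted p, limma, 0.0691).

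Markers of other cells differed between these media too. Of 7 undifferentiated markers 1 was higher and 0 lower, with sums of 680, 703 and 707 in MEF-CM and 564, 691 and 740 in E8 Medium (POU5F1 brightest). Of 6 hepatic and yolk sac markers 2 were called higher and 3 lower, the latter being APOA2, TTR and FGB, which were not well above background in MEF-CM nor, save for APOA2 and TTR in 1 culture each, in E8 Medium. The sums, brightest in AFP, were 13.9, 8.54 and 17.8 in MEF-CM and 0.775, 1.78 and 2.04 in E8 Medium. AFP was higher by 3.42 (adjusted p, limma, 0.000479, 3 of 3 arms). Of 5 neural markers 1 was called higher and 3 lower (sums 32.0, 26.7 and 39.5, brightest in NES, against 10.0, 12.4 and 15.3). Of those called lower, SOX1 and ZIC1 were not well above background in either medium, which leaves MAP2. That MAP2 call was lost without the bFGF cultures (-1.71, adjusted p, limma, 0.110). The part of these markers in the receptor differences was not tested.

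Of 7 fibroblast markers 2 were called higher and 2 lower in MEF-CM, with COL1A1 higher by 2.36 (adjusted p, limma, 0.000607, 3 of 3 arms). Those called lower, COL3A1 and LUM, were not well above background in either medium, and nor was DCN. The fibroblast sums were 67.3, 62.9 and 67.7 in MEF-CM and 56.7, 52.5 and 46.0 in E8 Medium (THY1 brightest). Of 6 trophoblast markers 1 was called higher, GATA3, not well above background in E8 Medium, and 1 lower, TFAP2A, which was not well above background in either medium (sums 6.99, 6.54 and 7.07 against 5.55, 5.88 and 8.14, KRT7 brightest). That GATA3 call was lost without the FGFC (adjusted p, limma, 0.0811) or bFGF cultures (adjusted p, limma, 0.083). Of 3 surface epithelium markers 0 were called higher and 1 lower, KRT5, not well above background in either medium (sums 0.0322, 0.0298 and 0.0474 against 0.0345, 0.0600 and 0.0414). Of 3 endothelium markers TEK was called higher and PECAM1, not well above background in MEF-CM, lower (sums 6.35, 6.63 and 6.53 against 3.90, 3.41 and 1.81, TEK brightest). That TEK call was lost without the bFGF cultures (1.35, adjusted p, limma, 0.0595). The part of these markers in the FGFR3 and FGFRL1 differences was not tested.

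The induced line 253G1 and the embryonic line H1, both in E8 Medium at 100 ng/mL, had no member that passed the test. On lead probes FGFR4 was the member with the clearest gap, lower in 253G1. The second FGFR1 probe had a larger mean difference but overlapping groups (253G1 up to 1.55, H1 down to 1.50). In limma 0 of 7 members were called, beside 14.6% of all probes (4.90% higher, 9.72% lower), and at an unadjusted p under 0.05 there were 1 member by its lead probe, FGFR4, and 13478 probes (31.8%). These cultures of H1 are also the E8 side of the comparison with MEF-CM. Between 56.2% and 61.7% of probes were well above background on the 253G1 arrays and between 60.1% and 74.0% on those of H1.

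FGFR4 was at -1.01, -0.93 and -0.91 in 253G1 (pre-culture, bFGF and FGFC) and at -0.45, -0.52 and -0.72 in H1, without overlap. The FGFR4 difference was -0.38 (95% interval -0.74 to -0.03, adjusted p, limma, 0.130, lower in 3 of 3 arms). FGFR1 differed by -0.12 (95% interval -0.42 to 0.19) on its lead probe, by -0.64 (95% interval -1.09 to -0.20, adjusted p, limma, 0.0552, lower in 3 of 3 arms) on its second and by -0.38 as the mean over probes. FGFR3 differed by 0.16 (95% interval -0.32 to 0.63) on its lead probe and by -0.25 (95% interval -0.86 to 0.36) on its second. FGFR2 differed by 0.13 (95% interval -0.28 to 0.54) and FGFRL1 by 0.25 (95% interval -0.35 to 0.84). With the 75th percentile 33.5% of the 6196 probes called were higher, and with quantile normalization 45.7% of 6985. Without the pre-cultures, the bFGF and the FGFC cultures 3039, 860 and 2098 probes were called.

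The calls in the pathway lists between these lines stand beside 14.6% of all probes called. FGF2 was higher in 253G1, at 0.80, 0.87 and 1.21 against -0.03, -0.01 and -0.10 in H1, by 1.01 (adjusted p, limma, 0.00371, 3 of 3 arms), and it was 1 of 5 ligands higher and 0 lower. That FGF2 call was lost without the FGFC cultures (0.85, adjusted p, limma, 0.0815) and without the bFGF cultures (1.07, adjusted p, limma, 0.0840). NRP1 was higher by 2.37 (adjusted p, limma, 4.02e-05, 3 of 3 arms), among 3 membrane partners called higher and 2 lower of 16, with FLRT2 of the latter well above background on 0 of 6 arrays of 253G1 and 3 of 6 of H1. Heparan sulfate enzymes had 1 higher and 0 lower of 11, feedback genes 0 and 1 of 13, and other receptor kinases 0 and 2 of 16. Docking genes (1 of 12 at an unadjusted p under 0.05), RAS-ERK genes (1 of 11) and splicing regulators (1 of 6) had 0 calls in limma. Among markers, the hepatic, neural and fibroblast lists had 1 higher each (AFP, NES and COL1A1), the fibroblast list 1 lower (POSTN, well above background on 0 of 6 arrays of 253G1 and 2 of 6 of H1), and the undifferentiated (1 at an unadjusted p under 0.05), trophoblast (0), surface epithelium (1) and endothelium (0) lists had 0 calls in limma. The AFP call was lost without the FGFC (2.05, adjusted p, limma, 0.0616), bFGF (2.15, adjusted p, limma, 0.0899) or pre-cultures (1.40, adjusted p, limma, 0.0644), that of COL1A1 without the FGFC (1.52, adjusted p, limma, 0.0584) or bFGF cultures (1.87, adjusted p, limma, 0.0772), and that of NES without the bFGF cultures (1.25, adjusted p, limma, 0.0650). Fibroblast sums were 60.1, 65.8 and 62.1 in 253G1 (THY1 brightest), hepatic sums 4.27, 4.15 and 5.37 (AFP) and neural sums 24.5, 23.9 and 28.5 (NES), and their part in any receptor difference was not tested.

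On mouse feeders, the induced line 201B7 had more FGFR3 transcript than the embryonic line KhES-1. FGFR2 did not pass the test, and its probes differed in direction. The lines differ in FGF dose too, 10 and 5 ng/mL, so line and dose cannot be told apart. Of 7 members 1 was called higher and 0 lower (limma, 2 members at an unadjusted p under 0.05), beside 27.7% of all probes called higher and 11.3% lower (38.9% either way, 51.3% at an unadjusted p under 0.05). The median of all probes was 0.34 higher in 201B7, and 0.24 higher without the pre-cultures. The arrays of the 201B7 pre-culture were dimmer, with 75th percentiles of 182 and 234 against 504 to 668 on the other feeder arrays.

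FGFR3 was at 2.91, 3.1 and 3.17 in 201B7 (pre-culture, bFGF and FGFC) and at 1.80, 2.19 and 2.26 in KhES-1. The 201B7 cultures all lay above those of KhES-1. FGFR3 was higher by 0.98 (95% interval 0.50 to 1.45, adjusted p, limma, 0.00755, 3 of 3 arms), or 0.64 relative to the median of all probes. The second FGFR3 probe gave 1.12 (adjusted p, limma, 0.0122, 3 of 3 arms). Without the bFGF cultures the FGFR3 call was lost (1.01, adjusted p, limma, 0.0985). With the 75th percentile 71.0% of the 16509 probes called were higher. The share was 46.7% of 8014 with quantile normalization and 58.8% of 12817 when only probes well above background were tested. Without the pre-cultures, the bFGF and the FGFC cultures 6749, 1411 and 11114 probes were called.

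FGFR2 was at 2.16, 2.48 and 2.81 in 201B7 and at 2.75, 3.08 and 2.88 in KhES-1, with overlap. The FGFR2 difference was -0.42 (95% interval -0.83 to -0.01, -0.76 relative to the median, adjusted p, limma, 0.0920, lower in 3 of 3 arms), and it passed with normexp (-0.54, adjusted p, limma, 0.0441). The second FGFR2 probe had the opposite sign, at 0.12 (95% interval -0.26 to 0.50), and the mean over the FGFR2 probes was -0.15, so no direction is given for FGFR2. FGFR1 differed by 0.22 (95% interval -0.09 to 0.52, -0.12 relative to the median, adjusted p, limma, 0.219, 3 of 3 arms), while its second probe was called higher at 0.67 (adjusted p, limma, 0.0253). The lead FGFR1 probe passed with quantile normalization (0.45, adjusted p, limma, 0.0346), as did the mean over the FGFR1 probes (0.44, adjusted p, limma, 0.0460). FGFR4 differed by 0.29 (95% interval -0.06 to 0.65) and FGFRL1 by 0.08 (95% interval -0.51 to 0.68).

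In the pathway lists NCAM1, an adhesion molecule that binds FGF receptors, was at 3.16, 1.50 and 0.43 in 201B7 and at -1.72, -2.16 and -2.02 in KhES-1, higher by 3.67 (adjusted p, limma, 0.000343, 3 of 3 arms), among 4 membrane partners higher and 1 lower of 16. PDGFRA was higher by 4.78 (adjusted p, limma, 7.73e-05, 3 of 3 arms), 1 of 2 other receptor kinases higher and 0 lower of 16. FGF1 was lower by a fitted -2.45 (adjusted p, limma, 0.00425, 3 of 3 arms), the 1 ligand of 5 called, and was well above background on 4 of 6 arrays of 201B7. That FGF1 call was lost without the bFGF cultures (-2.01, adjusted p, limma, 0.0722). Heparan sulfate enzymes had 1 higher and 2 lower of 11, docking genes 2 and 3 of 12, RAS-ERK genes 2 and 4 of 11, feedback genes 0 and 3 of 13 and splicing regulators 1 and 2 of 6. KSR1, 1 of the 2 RAS-ERK genes called higher, was well above background on 3 of 6 arrays of 201B7 and 2 of 6 of KhES-1. ESRP1, which keeps the epithelial splice form of FGFR2, was lower by a fitted -0.74 (adjusted p, limma, 0.00928, 3 of 3 arms). That ESRP1 call was lost without the bFGF cultures (-0.62, adjusted p, limma, 0.164).

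Of 7 fibroblast markers 4 were called higher in 201B7 and 0 lower (median 0.80), COL3A1 and LUM among the 4 without being well above background in either line. DCN, decorin, was at 7.08, 6.28 and 4.85 in 201B7 and at -2.09, -4.41 and -4.38 in KhES-1, higher by 9.69 (adjusted p, limma, 1.49e-06, 3 of 3 arms). The fibroblast sums were 255, 142 and 74.9 in 201B7, where DCN was the brightest, and 38.9, 43.4 and 41.7 in KhES-1, where THY1 was. Of the other markers 0 undifferentiated genes were higher and 1 lower of 7, 1 hepatic of 6, 2 neural of 5, 2 trophoblast of 6, 1 surface epithelium of 3 and 2 endothelium of 3 were called higher, and 0 of these lower. The hepatic call (FGB), the surface epithelium call (KRT5) and the neural calls (SOX1 and ZIC1) are of genes near background in both lines, as is TFAP2A of the trophoblast calls. The exceptions were ZIC1 in the 201B7 culture with FGFC and TFAP2A in that with bFGF, which were well above background there. Endothelium sums were 3.60, 3.46 and 3.54 in 201B7 and 1.51, 1.47 and 1.58 in KhES-1 (TEK brightest). Hepatic sums, brightest in AFP, were 6.99, 4.69 and 3.49 in 201B7 and 3.07, 2.10 and 1.97 in KhES-1. Their part in the FGFR3 difference was not tested.

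Set side by side as 5 systems, the order of FGFR3 means from high to low was H1 in MEF-CM (3.45 ± 0.17), 201B7 on feeders (3.06 ± 0.14), KhES-1 on feeders (2.08 ± 0.25), 253G1 in E8 (1.66 ± 0.32) and H1 in E8 (1.51 ± 0.33, SD, n = 3 each). The last 2 lie within their spread, and on this probe the mean of each system with mouse cells or their medium stands above both E8 means. Single cultures overlap, since the KhES-1 pre-culture (1.80) lies under E8 cultures at 1.84 and 1.98, and on the second FGFR3 probe the KhES-1 mean (-3.26) lies under that of H1 in E8 (-3.21). FGFRL1 was highest in H1 in MEF-CM (0.93 ± 0.15), then 201B7 (-0.14 ± 0.07), KhES-1 (-0.22 ± 0.07), 253G1 (-0.48 ± 0.17) and H1 in E8 (-0.72 ± 0.77). MEF-CM stands highest, and the H1 cultures in E8 are spread too widely to be set apart from 253G1, KhES-1 or 201B7.

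On the lead probe FGFR1 means were 3.72 ± 0.16 in H1 in E8, 3.67 ± 0.22 in 201B7, 3.60 ± 0.09 in 253G1, 3.56 ± 0.07 in H1 in MEF-CM and 3.45 ± 0.10 in KhES-1, and on the second FGFR1 probe they were 1.87, 1.61, 1.23, 1.68 and 0.94 in the same order of systems, so the order depends on the probe. On its lead probe FGFR2 was highest in KhES-1 (2.90 ± 0.17), then 201B7 (2.48 ± 0.32), 253G1 (2.23 ± 0.13), H1 in MEF-CM (2.21 ± 0.18) and H1 in E8 (2.09 ± 0.14). On the second FGFR2 probe 201B7 (-0.50) stood above KhES-1 (-0.62). FGFR4 was highest in H1 in E8 (-0.57 ± 0.14), then 201B7 (-0.83 ± 0.04), 253G1 (-0.95 ± 0.05), H1 in MEF-CM (-1.02 ± 0.25) and KhES-1 (-1.13 ± 0.13). For FGFR4 the gap between H1 in E8 and 201B7 is wider than either spread, and the later neighbours are not all separated.

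**Figure D4:**
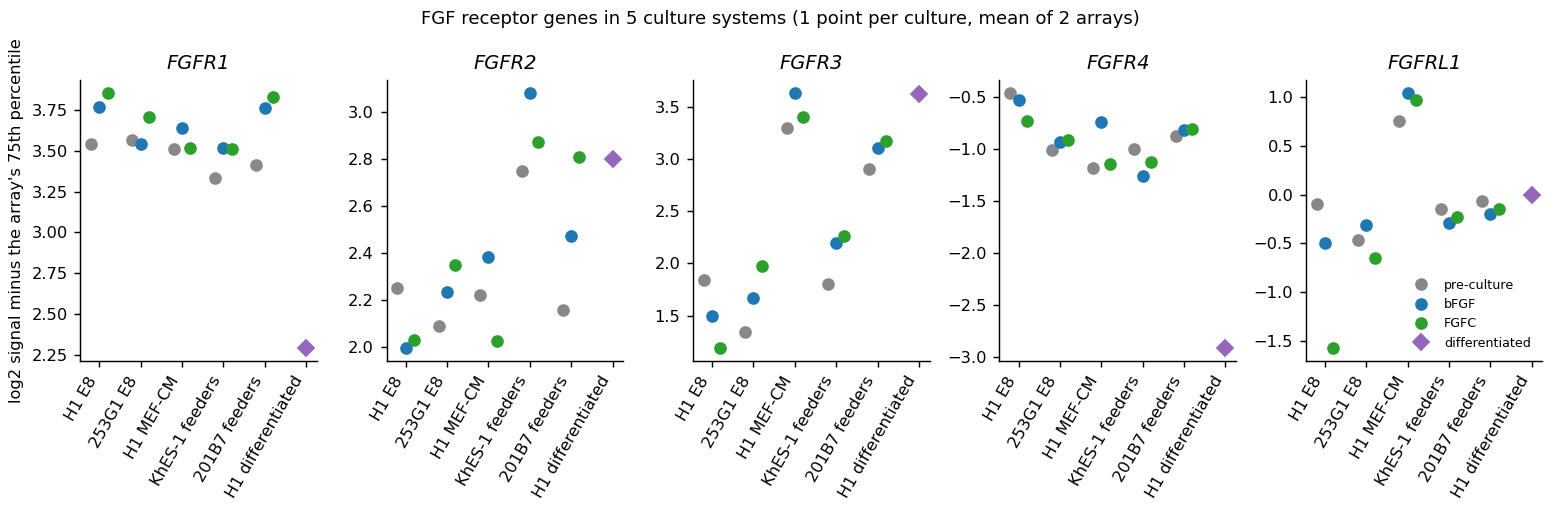
Level of 5 members (log2 signal minus the 75th percentile of the array) in 5 culture systems and in the differentiated H1 culture, 1 point per culture, coloured by arm. FGFR3 lies at or above 3.30 in H1 in MEF-CM and at or below 1.98 in the E8 systems.

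With the 5 system means as replicates, the 3 systems with mouse fibroblasts or their medium were set against the 2 in E8 Medium. FGFR3 was higher in the former, and no member passed the test. In limma 0 of 7 members were called, beside 0% of all probes, and at an unadjusted p under 0.05 there were 2 members, FGFR3 and KL (not well above background), and 7883 probes (18.6%). The FGFR3 difference was 1.28 (95% interval 0.23 to 2.33, 1.43 relative to the median of all probes at -0.15, adjusted p, limma, 0.230), with all 3 mouse-based means above both others on the lead probe but not on the second, and the lead probe passed with normexp (1.23, adjusted p, limma, 0.0293). FGFRL1 differed by 0.79 (95% interval -0.22 to 1.80), FGFR2 by 0.37 (95% interval -0.45 to 1.19), FGFR1 by -0.10 (95% interval -0.84 to 0.64) and FGFR4 by -0.23 (95% interval -1.01 to 0.54). Medium, fibroblast products and the dose of FGF cannot be told apart, and without 253G1 there were 45 probes called in place of 0. No pathway or marker list had a call in limma, while at an unadjusted p under 0.05 there were 5 of 5 ligands, 4 of 13 feedback genes and 2 of 16 membrane partners, and 0 docking, 0 RAS-ERK, 0 heparan sulfate, 0 splicing and 0 other receptor kinase genes. FGF2 levels, looked at after their values were seen, ran from 1.22 to 2.01 in the cultures with mouse cells or their medium and from -0.10 to 1.21 in the E8 cultures.

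**Figure D5:**
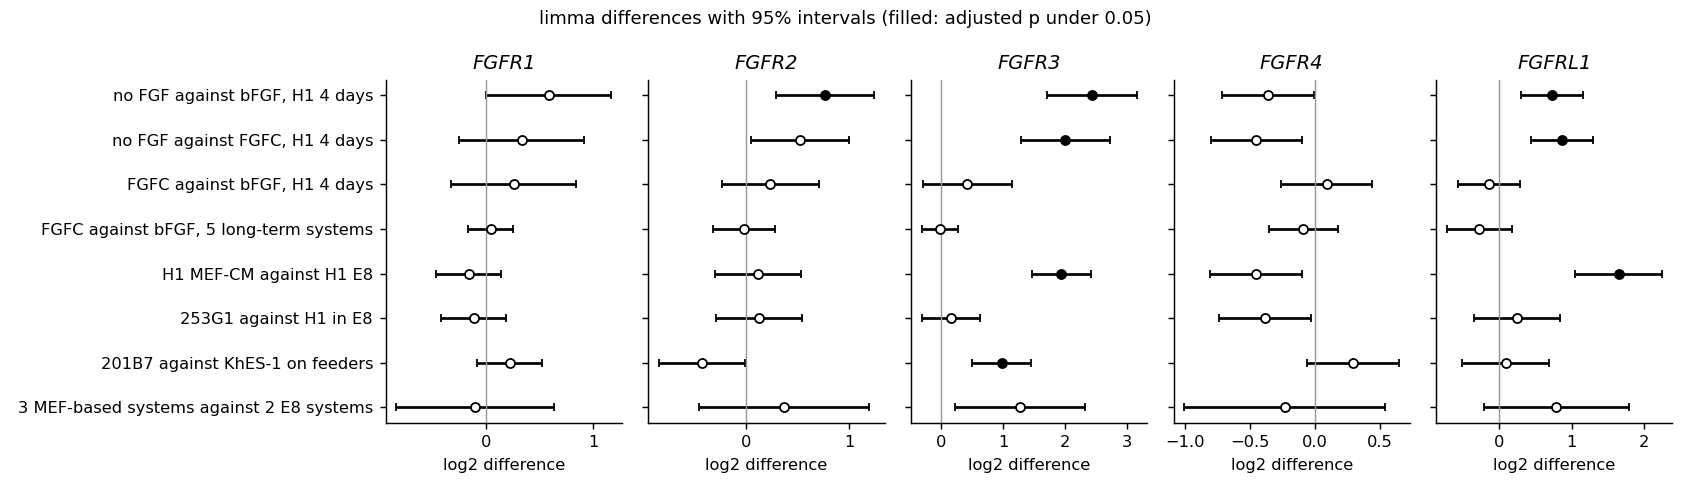
Fitted log2 difference of 5 members with its 95% interval in the 8 tested comparisons (limma), filled where the adjusted p is under 0.05. FGFR3 is filled in 4 comparisons, with values from 0.98 to 2.43.

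The differentiated H1 culture had less FGFR1 and FGFR4 transcript than any of the 14 H1 cultures in E8 Medium, those without FGF among them. FGFR3 was higher than their mean but within their range. There is 1 such culture and no test. Of the 5 measured members 2 were lower and 1 higher past 2-fold, beside 14.9% of all probes lower and 12.9% higher (27.8% either way).

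FGFR1 was at 2.29 in the differentiated culture, against 3.42 to 4.45 (median 3.93) in the H1 cultures in E8 Medium. It lies under all 14, 3.25-fold lower than their mean. FGFR4 was at -2.92, against -1.03 to -0.36 (median -0.52), and also lies under all 14, 4.99-fold lower. FGFR3 was at 3.63, inside the range of 1.19 to 4.95 (median 1.96), 1.24 above the mean, and its second probe was 0.50 above. FGFR2 at 2.80 and FGFRL1 at -0.00 lay inside the ranges of these cultures, 0.45 and 0.30 above the means. On lead probes FGFR2, FGFR3 and FGFRL1 lie inside these ranges only through the cultures without FGF. The highest of the 11 H1 cultures in E8 Medium with FGF were at 2.48, 2.74 and -0.01. On the second FGFR2 probe the differentiated culture, at -0.51, lay under the FGFC culture of experiment 3, at -0.47. With normexp the FGFR4 difference was -1.75.

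The summed markers describe this culture. Its undifferentiated sum was 56.3 (PODXL brightest), its hepatic sum 57.5 (TTR), its fibroblast sum 211 (COL1A1), its trophoblast sum 89.7 (KRT7), its neural sum 28.9 (NES), its surface epithelium sum 4.29 (KRT5) and its endothelium sum 0.971 (TEK). Of pathway genes picked after their values were seen, FGF2 was at -2.51, DUSP6 at 2.16 and SPRY4 at -2.92 in this culture, while FLRT3 was at 1.25. The part of the mixed markers in the FGFR1 and FGFR4 levels was not tested.

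The genes whose level followed each receptor most closely over the 27 cultures are given as a description, by Pearson r among 19471 probes, with r over the 26 cultures without the differentiated one after it. Cultures of a system share line and medium. For FGFR1 they were VIPR1 (0.87, 0.80), SEL1L3 (0.87, 0.77) and RECQL4 (0.86, 0.76). For FGFR2 they were TMEM54 (0.92, 0.93), C1R (0.89, 0.88) and PCDH18 (0.84, 0.84). For FGFR3 they were CDH6 (0.88, 0.87), GRHL3 (0.88, 0.87) and PRDM1 (0.87, 0.86). Without the differentiated culture the FGFR1 genes held ranks 82, 127 and 163, so they are closest to FGFR1 through that culture. Those of FGFR2 held ranks 1, 4 and 14 and those of FGFR3 ranks 3, 4 and 6.

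For FGFR4 the closest were HTR3A (0.96, 0.85), ACSBG1 (0.93, 0.76) and CLDN10 (0.92, 0.82), which held ranks 19, 251 and 71 for FGFR4 without the differentiated culture. For FGFRL1 they were TNFRSF11B (0.87, 0.88), CDH2 (0.87, 0.89) and NR4A3 (0.81, 0.87). CDH2 is the neural cadherin that rose with FGFRL1 after FGF removal and was higher with it in MEF-CM.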

How the data were processed

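RNA of 27 cultures was measured on 54 Agilent 1-colour arrays on 17 slides, 2 arrays per culture. The deposited signal intensity is the processed signal of Agilent Feature Extraction 10.7.3.1, linear, with the background subtracted, and without scaling across arrays per the file headers, and the deposited matrix holds the same values on 54 arrays. Of 62976 spots, 4259 controls and 266 to 623 outlier spots per array were left out, signal under 1 was set to 1 and taken as log2, and the log2 values of a probe's spots were averaged to 42405 probes (606 values missing). The 75th percentile of the array (182 to 913) was then subtracted. As a measure of depth, a median of 67.5% of probes was well above background and 0 were saturated. Duplicate arrays were averaged. Symbols came from RefSeq accessions (25715 probes).

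Tests used limma 3.58.1 (R 4.3.3) with adjusted p (Benjamini-Hochberg) under 0.05 over all probes, checked on simulated data. The reported 4-day fits have no block. Deviations of arms with the same experiment number correlated at 0.19 to 0.32 (bFGF and no FGF), 0.23 to 0.26 (FGFC and no FGF) and 0.08 to 0.18 (bFGF and FGFC), and at -0.16 to 0.52 with the pre-cultures, so the numbers pair the arms compared with no FGF, and the paired fit was run as an alternative. The 4-day fit used 12 cultures, the system fit 15 with the arm as a covariate, and the long-term FGFC fit 10 with the system as a block. The 3 cultures of a system share a line, so their spread is that between these cultures alone. Tables were made with pandas 2.3.3 and numpy 2.4.6 under Python 3.11.15, and plots with matplotlib 3.10.9. Alternatives were normexp background correction (offset 50), quantile normalization, each array alone, the mean over a gene's probes, only probes well above background, blocks for experiment or slide, only the arms compared, and leaving out each replicate, arm or system.

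All 7 members were named by rule, and from each list up to 3 rises and 3 falls per comparison among lead probes past the test and well above background in the higher group. Of these the text gives mainly the largest and those whose call stood in each leave-one-out fit. The members and lists were chosen with earlier results of these data known.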

Additional observations from a re-analysis of the deposited data

How the results depend on the processing

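Of 450 member results under an alternative, 409 kept their direction and side of the threshold, 17 no longer passed, 9 newly passed, 14 changed sign and 1 moved. Most of the 450 were not called in the reported fit and so could not stop passing. Of 172 counts 135 stayed within 1.5 times the value reported. The FGFR3 rise without FGF against bFGF passed in 12 of 12 alternatives (2.03 to 2.72), and FGFR3 and FGFRL1 in MEF-CM in 9 of 9 (1.75 to 2.19 and 1.20 to 2.05). Without FGF against bFGF, FGFR2 passed in 6 of 12 and FGFRL1 in 7 of 12. Against FGFC, FGFR3 passed in 11 of 12 and FGFRL1 in 8 of 12. FGFR3 in 201B7 against KhES-1 passed in 8 of 9. In the other changes below the cause was not tested, except that leaving out a culture leaves fewer samples, with arms of 2 cultures whose spread limma pools.

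Without FGF against bFGF, members called were 1 in place of 3 with the second array and with slide as a block, and 1 to 1 without a replicate, while probes called were 9750 with only these arms and 1272 to 3557 without a replicate, in place of 5400. Against FGFC, members called were 1 in place of 2 with slide as a block and with only these arms, and 0 to 2 without a replicate, while probes called were 2553 with only these arms and 974 to 3840 without a replicate, in place of 4575.

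With experiment as a replicate block, 3, 2 and 0 members and 5750, 4928 and 0 probes (limma, 1781 at an unadjusted p under 0.05 in the last) were called in the 4-day comparisons without FGF against bFGF, without FGF against FGFC and FGFC against bFGF. This block changed no member call. Of the list genes the text names with a call, it took away that of SULF1 against FGFC.

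Between FGFC and bFGF in the long term, FGFR1 (0.04) was -0.01 with the mean over probes and -0.03 with quantile normalization. FGFR3 (-0.02) was 0.04 with the mean over probes, 0.01 with normexp, 0.01 with the second array and -0.10 to 0.05 without a system. FGFR2 (-0.02) was -0.10 to 0.07 without a system (0.07 without MEF-CM, 0.03 without KhES-1). FGFRL1 (-0.28) was -0.07 without H1 in E8 and FGFR4 (-0.09) was -0.01 without MEF-CM.

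In MEF-CM against E8, FGFR2 (0.12) ran from -0.02 to 0.19 without an arm, and probes called, 12373, were 4469 with normexp, 6716 with quantile normalization, 6326 with only probes well above background and 3122 to 14358 without an arm. In 253G1 against H1, FGFR3 (0.16) was -0.05 with the mean over probes and -0.16 to 0.49 without an arm, FGFRL1 (0.25) was -0.09 to 0.56 without an arm, and probes called, 6196, were 2626 with normexp, 3617 with the first array and 860 to 3039 without an arm.

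In 201B7 against KhES-1, FGFRL1 (0.08) was -0.03 with the second array, members called were 2 in place of 1 with normexp, quantile normalization and the mean over probes and 0 to 1 without an arm, and probes called, 16509, were 8014 with quantile normalization, 9420 with the first array and 1411 to 11114 without an arm. In the 5 systems split by mouse fibroblasts, 403 probes and 1 member (FGFR3) were called with normexp, and 45 probes without 253G1, in place of 0 (limma, 7883 at an unadjusted p under 0.05). Signal close to background limits KL and KLB.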
